A study of Schizosaccharomyces pombe with 29 samples.

Results

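Transcripts of 9 fission yeast genes that sense, store or regulate iron were followed across strains of Schizosaccharomyces pombe whose RNA polymerase II carries altered C-terminal repeats on its Rpb1 subunit. The genes are fep1 and tup11 (a GATA-type iron repressor and a co-repressor), grx4 (a glutaredoxin), php4, php2, php3 and php5 (a CCAAT-binding complex), and the vacuolar transporter genes pcl1 and abc3. They were found by the common name that the authors' deposited T4A table gives to each ID of the count table, and all 9 matched 1 ID each, of 6986 IDs in all. The members were named for their known roles, with earlier results of these data known. fep1 (SPAC23E2.01), tup11 (SPAC18B11.10) and php3 (SPAC23C11.08) lie on chromosome I. grx4 (SPBC26H8.06), php4 (SPBC16E9.01c), php2 (SPBC725.11c), php5 (SPBC3B8.02), pcl1 (SPBC1683.10c) and abc3 (SPBC359.05) lie on chromosome II.

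These repeats form the C-terminal domain (CTD), a run of heptads that is phosphorylated and dephosphorylated in the course of transcription. The 31 libraries of polyadenylated RNA fall into 10 groups, grown at 30 °C in rich YES medium in log phase. The control is an h+ strain with 29 unchanged heptads, rpb1-CTD-WT29::NatMX, measured as control set 1 (3 libraries) and again as control set 2 (3 libraries, tied to their record by elimination). The strains Y1F, S2A and S2A-S7A carry 29 heptads with the named substitutions in the same NatMX-marked h+ form, with 3 libraries each, and the labels set them against control set 1. ALT-P3A, ALT-S5A and ALT-P6A have the same form and number of heptads and libraries, and are set against control set 2; what ALT abbreviates is not stated. T4A (29 heptads, 3 libraries, with no mating type or marker named) was re-analysed from an earlier study, sequenced on another instrument, and set against control set 2, so that its substitution and its source cannot be told apart. WT18 has 18 unchanged heptads and 4 libraries. Its 2 new libraries come from the NatMX-marked h+ strain, and its 2 earlier ones from an h- strain with ade6, ura4 and leu1 markers, another RNA extraction, library kit and instrument. The tag that marks the rpb1 allele is also present in the control, and each allele is a lab strain with no second isolate named. The labels name separate cultures for the earlier WT18 pair only, so elsewhere p-values measure the spread between libraries, which may be technical.

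In fission yeast Fep1 binds GATA elements when iron is plentiful and, with Tup11 or its relative Tup12, represses the genes of iron uptake. When iron is scarce Php4 joins the DNA-bound Php2, Php3 and Php5 subunits and represses genes of iron-using proteins, pcl1 among them, and the php4 gene is itself repressed by Fep1. Grx4 binds both Fep1 and Php4 and relays the iron status to them. Pcl1 moves iron into the vacuole for storage, while Abc3 is a vacuolar ABC transporter whose gene is switched on in iron starvation under the control of Fep1. RNA was measured here, not iron, protein or binding.

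All 9 transcripts were well above the noise of counting, with 366 reads in the lowest library for abc3 and 10033 in the highest for pcl1. Total counts per library ran from 15243598 to 35763201 reads with a median of 22835109. Levels below are CPM, a gene's reads scaled to a common library size over all 31 libraries. Per kilobase of annotated exon, the mean level over all libraries was lowest for abc3 (6.68 CPM per kb). It lay between 33.0 and 46.9 CPM per kb for php2, php4, fep1 and tup11, and stood at 74.8 for php5, 132 for grx4 and 133 for pcl1. php3 stood highest at 228 CPM per kb, but its annotated model of 351 bases may hold the coding part only. From the lowest to the highest group mean, the levels spanned 3.55-fold for php3, 2.79-fold for abc3, 2.71-fold for fep1, 2.27-fold for php5, and 1.62-fold to 1.96-fold for the other 5 genes. In RNA of whole cultures, a lower level in every cell and RNA from fewer cells cannot be told apart.

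**Figure D1:**
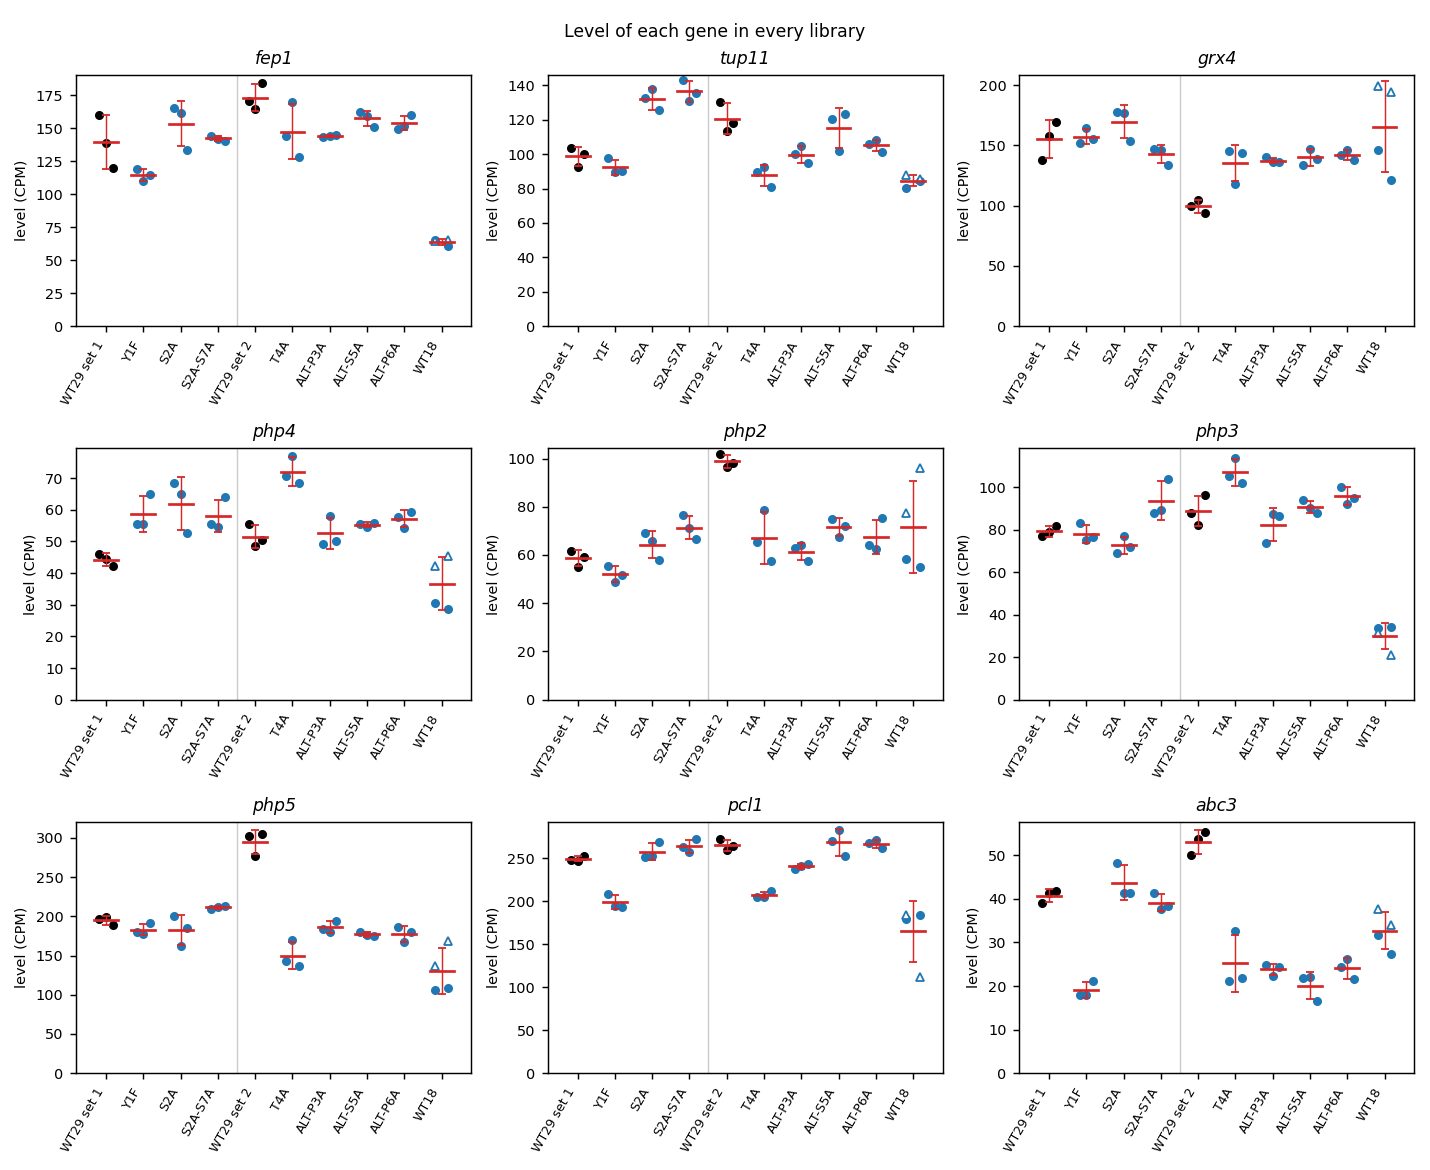
Level of each of the 9 genes (CPM, vertical axis from 0) in every library of the 10 groups, with control libraries in black, mutant libraries in blue, the 2 earlier WT18 libraries as open triangles, and red bars for the group mean and SD. The grey line parts control set 1 and the strains set against it from control set 2 and its strains; abc3 is low in Y1F, T4A and the 3 ALT strains, fep1 and php3 are lowest in WT18, and the control sets differ in grx4, php2 and php5.

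The labels name the same strain for both control sets, and the set 2 columns are tied to their record by elimination only. Of the 9 genes, 5 were higher and 1 was lower in set 2 than in set 1 (edgeR quasi-likelihood test, adjusted p under 0.05), where 24.5% of all genes were higher and 19.5% lower. php2 stood at 61.8, 55.2 and 59.3 CPM in set 1 and at 101.7, 96.4 and 98.3 CPM in set 2 (log2 difference 0.75 ± 0.08 SE, adjusted p = 0.000109). php5 was 0.60 ± 0.07 higher in set 2, while grx4 was lower (-0.64 ± 0.09). fep1 (0.31 ± 0.10), tup11 (0.29 ± 0.08) and abc3 (0.38 ± 0.10) were higher by less, and php4, php3 and pcl1 did not pass. Each strain is therefore given against the control set its labels name and against the other set. In the 5 authors' deposited tables made with set 2, the control means could not be rebuilt from these 3 columns (median deviation 23.2% or 23.3% over genes with a mean signal above 100), so those tables serve as a reference of their own. "Rose" and "fell" mean an adjusted p under 0.05.

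Over 9 genes and 8 strains, 41 of 72 differences passed against the named control set, and 16 passed in 1 direction against either set, 1 of them a rise and 15 falls. Of all genes, between 13.3% (ALT-S5A) and 52% (WT18) also passed in 1 direction against either set, so such a pass was common. All 16 also passed in that direction in the authors' deposited tables. They are the falls of fep1, pcl1 and abc3 in Y1F, the rise of php4 and falls of php5, pcl1 and abc3 in T4A, the fall of abc3 in ALT-P3A, ALT-S5A and ALT-P6A, and the falls of fep1, tup11, php3, php5, pcl1 and abc3 in WT18. Each of the 16 stayed past the threshold against the named set when any 1 library was left out. S2A and S2A-S7A had no such gene. The deposited tables used the same mutant libraries, and in Y1F the same control libraries, so they are not a separate measurement. They differed in other calls. There php3 fell in ALT-P6A (-0.21), where it rose against set 1, and in ALT-P3A (-0.43) and ALT-S5A (-0.28). fep1 and tup11 rose in ALT-S5A (0.22 and 0.23), and php4 rose in ALT-S5A (0.24) and ALT-P6A (0.29). pcl1 fell in ALT-P3A (-0.195) and rose in S2A-S7A (0.11), and no rise of grx4 passed.

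**Figure D2:**
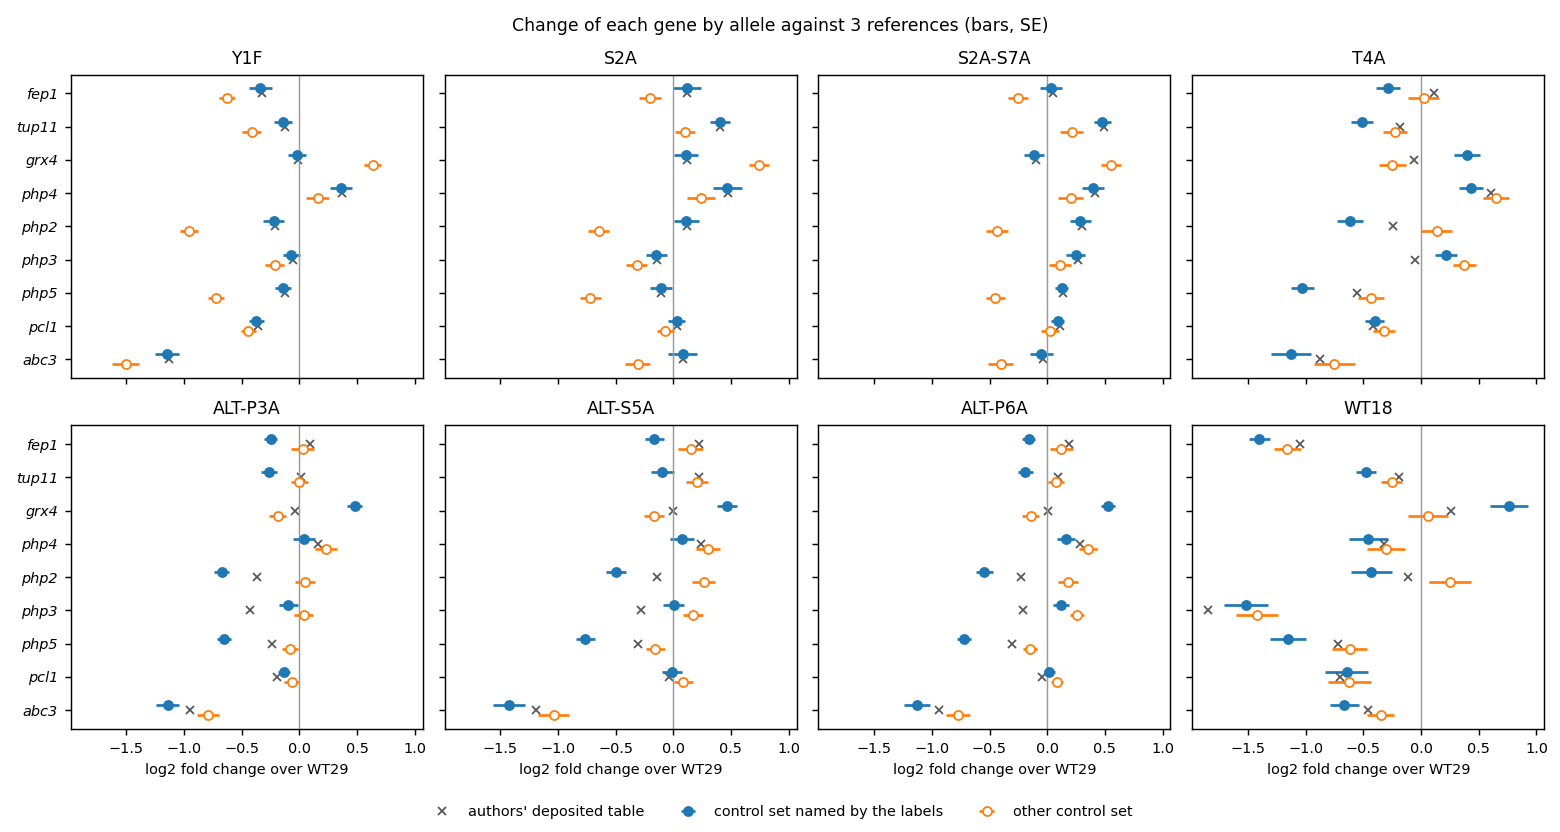
Log2 fold change (horizontal axis) of each gene in each of the 8 strains over the 29-heptad control, against the control set the labels name (filled blue, bar SE), against the other control set (open orange, bar SE) and in the authors' deposited table (grey cross). abc3 lies left of 0 with all references in Y1F, T4A, the 3 ALT strains and WT18, while grx4 and php2 change side with the control set in T4A and the ALT strains.

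Each strain's count of members is given beside the share of all genes called. In Y1F 1 member rose and 3 fell, where 23.6% of all genes rose and 27.6% fell. In S2A 2 members rose and 0 fell (18.2% and 17.5% of all genes), and in S2A-S7A 4 rose and 0 fell (29.4% and 31.1%). T4A had 2 rises and 5 falls (18.4% and 22.4%), and ALT-S5A had 1 and 3 (14.9% and 18.1%). ALT-P3A (21.8% and 21%) and ALT-P6A (22.1% and 23.3%) each had 1 rise and 5 falls. WT18 had 1 rise and 7 falls, where 35.8% of all genes rose and 33.8% fell. The falls of 5 to 7 of 9 in T4A, ALT-P3A, ALT-P6A and WT18 thus stood above the share of all genes that fell, against control set 2 only for the 2 ALT strains. Against set 1, abc3 alone fell in ALT-P3A and ALT-P6A, where 22.8% and 25.3% of all genes fell. There php5, pcl1 and abc3 fell in T4A (20.6%), and fep1, tup11, php3, php5, pcl1 and abc3 in WT18 (29%).

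Against the other control set, 8 members passed in Y1F (61.8% of all genes), 5 in S2A (45.7%), 5 in S2A-S7A (48.9%), 3 in ALT-P6A (50.5%), 5 in T4A (38.3%), 3 in ALT-S5A (41%), 1 in ALT-P3A (46.6%) and 6 in WT18 (59.6%). With a change of at least 2-fold against the named set required as well, abc3 was the 1 member that passed in Y1F (9.79% of all genes), in ALT-P6A (6.35%), in ALT-S5A (5.8%) and in ALT-P3A (3.03%). php5 and abc3 passed in T4A (13.2%), fep1, php3 and php5 in WT18 (36.5%), and 0 members in S2A (12.9%) and S2A-S7A (15.5%). A pass in 1 direction against either control set was met by 3 of 9 members in Y1F and 30.6% of all genes, 4 of 9 and 20.5% in T4A, 1 of 9 in each of ALT-P3A (16.9%), ALT-S5A (13.3%) and ALT-P6A (20.9%), and 6 of 9 and 52% in WT18. In S2A (20.7%) and S2A-S7A (30.1%) it was met by 0 members.

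abc3, the vacuolar transporter gene, had the most regular pattern of the 9. Its libraries read 39.0, 41.4 and 41.9 CPM in control set 1 and 50.0, 53.7 and 55.4 CPM in set 2. Y1F gave 17.9, 18.0 and 21.2 CPM, ALT-S5A 21.9, 22.0 and 16.5 CPM, ALT-P3A 24.9, 22.3 and 24.3 CPM, ALT-P6A 24.3, 26.3 and 21.6 CPM, and T4A 21.2, 32.6 and 21.8 CPM. All 15 libraries of these 5 strains lay below all 6 control libraries. S2A (48.3, 41.4 and 41.3 CPM) and S2A-S7A (41.4, 37.7 and 38.4 CPM) overlapped control set 1, while WT18 (31.6, 27.4, 37.6 and 34.0 CPM) lay below all 6 control libraries and overlapped T4A.

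Against the named control set, the log2 fold change of abc3 was -1.15 ± 0.11 in Y1F (adjusted p = 1.56e-06) and -1.43 ± 0.14 in ALT-S5A (2.01e-05). T4A gave -1.13 ± 0.17 (0.000683), ALT-P6A -1.13 ± 0.11 (6.74e-05) and ALT-P3A -1.14 ± 0.10 (0.000107), while WT18 gave -0.67 ± 0.13 (0.00206). Against the other set it was -1.51 ± 0.12 in Y1F and -1.04 ± 0.14 in ALT-S5A. T4A then gave -0.75 ± 0.18, ALT-P6A -0.78 ± 0.10, ALT-P3A -0.79 ± 0.10 and WT18 -0.35 ± 0.12, and each passed. In 5 of these 6 strains abc3 was thus at a log2 level at least 0.75 below either control set. The authors' deposited tables gave between -1.19 in ALT-S5A and -0.46 in WT18. In S2A and S2A-S7A abc3 did not pass against set 1 (0.08 ± 0.13 and -0.05 ± 0.10) and fell against set 2 (-0.31 ± 0.11 and -0.40 ± 0.11). The direct contrast of Y1F with S2A, which share control set 1, gave -1.25 ± 0.12 (adjusted p = 7.81e-06). A fall against either control set in all of Y1F, T4A and the 3 ALT strains was shared by 89 of 5892 genes (1.51%), and with WT18 added by 49 of 5891 (0.832%). This set of strains was chosen after the values of abc3 were seen.

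pcl1, whose product loads iron into the vacuole, was steady in most strains. It read 248.5, 247 and 253 CPM in control set 1 and 272, 259.6 and 264 CPM in set 2, and the group means of S2A, S2A-S7A, ALT-S5A and ALT-P6A lay between 258 and 269 CPM. It was lower in Y1F (208, 195 and 194 CPM), in T4A (205, 206 and 212 CPM) and in WT18 (179.9, 184, 185 and 112 CPM), with no overlap with any control library. The log2 fold change was -0.37 ± 0.07 in Y1F (adjusted p = 0.000394), -0.40 ± 0.09 in T4A (0.00438) and -0.65 ± 0.19 in WT18 (0.0151). Against the other set it was -0.44 ± 0.07, -0.32 ± 0.09 and -0.62 ± 0.19. WT18 replicate 4, an earlier library, stood apart at 112 CPM, and the 2 new libraries alone gave -0.48. In ALT-P3A (237, 241 and 244 CPM) it stood at -0.13 ± 0.05 and did not pass.

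fep1, the gene of the iron-sensing repressor itself, was lowest in WT18. There it read 65.5, 60.6, 64.2 and 65.3 CPM, against 119.7 to 160.3 CPM in control set 1 and 165 to 185 CPM in set 2, and the highest WT18 library lay below every other library of the series. The log2 fold change in WT18 was -1.40 ± 0.09 against set 2 (adjusted p = 0.000172) and -1.16 ± 0.12 against set 1. The new and the earlier WT18 libraries, which differ in strain and protocol, gave -1.39 and -1.26 against set 2 when fitted alone. Y1F was next lowest (119, 109.7 and 114 CPM), with -0.34 ± 0.10 against set 1 (adjusted p = 0.011) and -0.63 ± 0.07 against set 2. In ALT-P3A and ALT-P6A fep1 passed against set 2 by small falls (-0.25 ± 0.06 and -0.16 ± 0.06), while it stood at 0.03 and 0.12 against set 1 without passing, and the call in ALT-P6A was lost when ALT-P6A replicate 1, 2 or 3 or control replicate 4 or 6 was left out. In S2A-S7A fep1 stood at 0.03 ± 0.10 against set 1 and fell against set 2 (-0.25 ± 0.08, adjusted p = 0.0273). It did not pass in S2A, T4A or ALT-S5A with either set, but passed in T4A against set 2 without T4A replicate 2 (-0.38, adjusted p = 0.0045).

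tup11, a gene for a co-repressor that works with Fep1, was highest in S2A (133, 138 and 126 CPM) and S2A-S7A (143, 131 and 136 CPM), and lowest in WT18 (80.1, 84.3, 87.7 and 85.8 CPM). Against control set 1 (104, 92.6 and 99.9 CPM) it rose in S2A by 0.40 ± 0.09 on the log2 scale (adjusted p = 0.0046) and in S2A-S7A by 0.48 ± 0.07 (0.000719). Against set 2 (131, 114 and 118 CPM) these were 0.10 ± 0.09 and 0.21 ± 0.10, and neither passed. The fall in WT18 was -0.48 ± 0.09 against set 2 and -0.25 ± 0.09 against set 1. The falls against set 2 in T4A (-0.51 ± 0.10), ALT-P3A (-0.26 ± 0.07) and ALT-P6A (-0.19 ± 0.07) had no counterpart that passed against set 1, where the values were -0.23, -0.001 and 0.08. The direct contrast of Y1F with S2A gave a log2 difference of -0.56 ± 0.07 (adjusted p = 0.000104).

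grx4 gave no difference that passed in 1 direction with both control sets. Control set 2 was low (99.7, 105 and 93.6 CPM) and control set 1 ran from 138 to 169 CPM, while Y1F, S2A, S2A-S7A, T4A and the ALT strains held 118 to 178 CPM. Thus T4A and the ALT strains passed as rises of 0.40 to 0.52 on the log2 scale against set 2, but stood between -0.25 and -0.14 against set 1, with none of the 4 past the threshold. WT18 (146, 122, 199.6 and 194 CPM) rose against set 2 (0.77 ± 0.16, adjusted p = 0.00399) and stood at 0.06 ± 0.17 against set 1. Y1F, S2A and S2A-S7A were at -0.02, 0.11 and -0.11 against set 1 and rose by 0.64, 0.74 and 0.55 against set 2.

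php4, the iron-responsive subunit of the CCAAT-binding complex, was highest in T4A. It read 70.7, 77.0 and 68.4 CPM there, against 46.1, 44.3 and 42.1 CPM in control set 1 and 55.4, 48.5 and 50.4 CPM in set 2. The lowest T4A library lay just above the highest of any other group, an S2A library at 68.3 CPM. The log2 fold change was 0.43 ± 0.11 against set 2 (adjusted p = 0.00904), 0.65 ± 0.11 against set 1 and 0.61 in the authors' deposited table. php4 also rose against set 1 in Y1F (0.36 ± 0.10), S2A (0.47 ± 0.13) and S2A-S7A (0.40 ± 0.10), and against set 1 in ALT-S5A (0.30 ± 0.10) and ALT-P6A (0.36 ± 0.08). None of these 5 passed against set 2. In the authors' deposited tables php4 rose in each of them, with 0.24 in ALT-S5A and 0.29 in ALT-P6A. The deposited control means for these ALT strains could not be rebuilt from the set 2 columns. In S2A the call was lost without control replicate 2, S2A replicate 1 or S2A replicate 2, and in Y1F without Y1F replicate 3 (adjusted p = 0.0538). WT18 had the lowest levels (30.4, 28.6, 42.3 and 45.5 CPM), and its fall (-0.46 ± 0.17, adjusted p = 0.0401 against set 2) was lost without WT18 replicate 1 or 2 or any 1 control library.

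The DNA-binding subunits of the same complex did not move together. php3 was lowest in WT18, with 33.6, 34.2, 31.4 and 21.2 CPM against 76.9 to 82.0 CPM in control set 1 and 82.0 to 96.5 CPM in set 2. Its log2 fold change in WT18 was -1.52 ± 0.19 against set 2 (adjusted p = 0.000371) and -1.42 ± 0.18 against set 1. T4A had the highest php3 level (105, 114 and 102 CPM), which passed against set 1 (0.37 ± 0.10) and not against set 2 (0.22 ± 0.09). php5 was highest in control set 2 (302, 277 and 305 CPM), and every other library of the series was at or below 212.5 CPM. Against set 1 (197, 199 and 188 CPM) it fell in T4A (143, 169.7 and 136 CPM; -0.44 ± 0.11) and in WT18 (106, 109, 137 and 168 CPM; -0.62 ± 0.15), and against set 2 by more (-1.03 ± 0.10 and -1.15 ± 0.15). The falls of php5 in the ALT strains against set 2 (-0.65 to -0.76) were -0.08 to -0.16 against set 1, where none passed. php2 followed the control sets in the same way. Its log2 fold change in T4A and the ALT strains was -0.67 to -0.50 against set 2, where each passed. It stood between 0.05 and 0.26 against set 1 and rose there in ALT-S5A (0.26 ± 0.10, adjusted p = 0.0433) and not in the other 3.

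Strains that share a control set were also contrasted directly, with the control libraries in the fit for the scaling, the filter and the estimate of spread but not in the difference itself. Y1F against S2A gave 5 falls and 0 rises among the members, where 42.2% of all genes were called: abc3, tup11, fep1 (-0.47 ± 0.11), pcl1 (-0.42 ± 0.06) and php2 (-0.35 ± 0.10). S2A-S7A against S2A gave 1 rise, php3 (0.39 ± 0.08, adjusted p = 0.00624), and 0 falls, where 34.4% of all genes were called. Same-numbered libraries deviated together in this contrast (correlations of 0.68, 0.17 and 0.34), and a pairing is inferred from that alone. With replicate number as a block php5 rose too (0.23) and grx4 fell (-0.23). ALT-P3A against ALT-P6A gave falls of pcl1 (-0.15 ± 0.04) and php3 (-0.22 ± 0.08), where 28.8% of all genes were called. The count was 2 with all libraries, 0 without ALT-P3A replicate 1, ALT-P6A replicate 1 or ALT-P6A replicate 2, and 1 without any other. ALT-P3A against ALT-S5A gave 0 calls among the members by edgeR and by DESeq2, where 21.1% of all genes were called; tup11, php2 and pcl1 had an unadjusted p under 0.05. Without ALT-S5A replicate 2 the count was 2 (tup11 and php2), and without ALT-S5A replicate 3 it was 1 (pcl1). ALT-P6A against ALT-S5A gave 0 calls by either tool and 0 members with an unadjusted p under 0.05, where 0.309% of all genes were called. For abc3 the log2 difference of ALT-P6A from ALT-S5A was 0.26 with a 95% interval from -0.02 to 0.55, and over the other 8 genes the bounds of the interval ran from -0.31 to 0.23.

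The 2 new and 2 earlier WT18 libraries were compared in the fit with control set 2. grx4 (-0.49 ± 0.11), php4 (-0.50 ± 0.13), php2 (-0.55 ± 0.13) and php5 (-0.44 ± 0.12) were lower in the new pair, 0 members were higher, and 35.7% of all genes were called. With the size factors of DESeq2 in place of the scaling used here, the median of all genes moved from -0.007 to -0.113 in this contrast, and 4 members passed with either scaling. Without WT18 replicate 2 the count was 0, and without replicate 3 it was 6, with php3 and pcl1 higher in the new pair. The falls of fep1, tup11, php3, php5, pcl1 and abc3 in WT18 passed with either pair alone against set 2. The log2 fold change of php4 in WT18 was -0.74 with the new pair and -0.07, not past the threshold, with the earlier one.

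**Figure D3:**
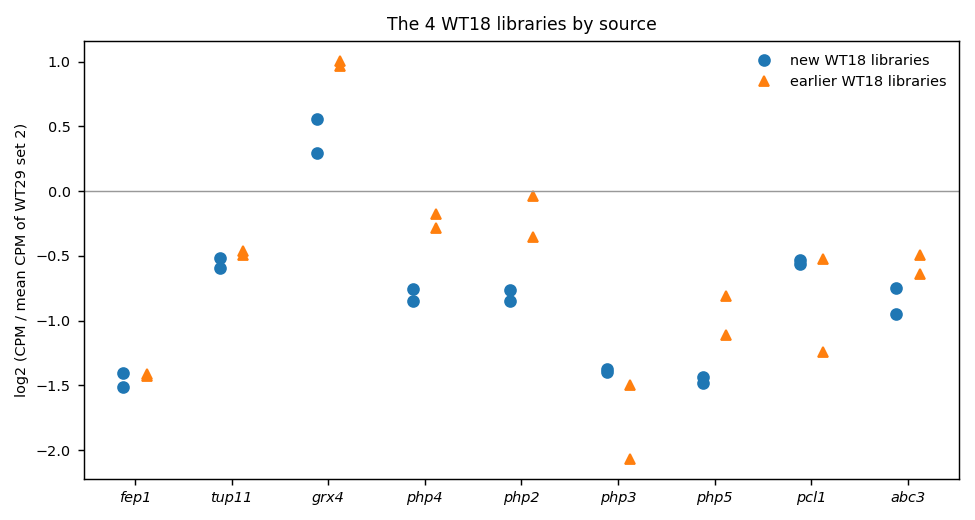
Level of each gene in the 4 WT18 libraries as log2 of its CPM over the mean CPM of control set 2 (vertical axis), with the 2 new libraries as blue circles and the 2 earlier ones as orange triangles. All genes but grx4 lie below 0 in all 4 libraries, and both new libraries lie below both earlier ones for grx4, php4, php2, php5, tup11 and abc3, of which the first 4 passed the test of that difference.

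Genes that the 9 regulators and transporters act on or with were taken from lists written from general knowledge, with earlier results of these data known. Of 10 matched iron acquisition genes 8, 9 or 10 were tested, since the low-count filter was applied in each fit. A gene very low in the control can pass this filter only through a strain where it is high. Such a gene can only count as a rise and lifts the median, so counts with unlike numbers tested are not alike. Of the iron acquisition genes that Fep1 represses, 9 of 10 tested rose and 0 fell in S2A-S7A (median log2 fold change 2.30, all genes -0.03), 7 of 9 rose and 1 fell in T4A (1.65, all genes 0.01), and 6 of 8 rose and 2 fell in S2A (0.95, all genes -0.01). Y1F had 5 rises and 1 fall of 8, and ALT-P6A 6 and 1 of 10. Against the other control set these counts were 9 and 1 of 10, 5 and 0 of 9, 6 and 1 of 8, 7 and 1 of 8, and 6 and 2 of 10. fio1, the iron oxidase gene, rose in Y1F (1.91 ± 0.18 on the log2 scale against set 1, 2.28 against set 2) and T4A (3.19 ± 0.24 against set 2, 2.85 against set 1). ALT-S5A had 3 rises and 0 falls of 8, ALT-P3A 3 and 1 of 8 and WT18 0 and 2 of 8, and against the other set 3 and 3 of 9, 4 and 3 of 8, and 0 and 2 of 8. The number of falls in the first 2 of these strains thus depended on the control set. The WT18 count pools 2 sources that differ in this list. In the new WT18 libraries against the earlier ones, 6 of 10 were higher and 0 lower (median 1.04, all genes -0.007), where 35.7% of all genes were called. The largest differences were those of shu1 (7.41 ± 1.46) and str3 (5.62 ± 1.21). This fit tested 10 genes of the list and the pooled WT18 fit 8, as its filter asks for fewer libraries with enough reads. A gene that passes the filter through the new pair alone could only be higher there, so the count and these sizes follow in part from the filter. The share of all genes that rose was 29.4% in S2A-S7A, 18.4% in T4A, 18.2% in S2A, 23.6% in Y1F and 22.1% in ALT-P6A. Against the other set it was 24.9%, 17.7%, 21%, 30.3% and 25.2%. Of all genes, 17.5% to 31.1% fell in these 5 strains, and 20.6% to 31.4% against the other set. In ALT-S5A, ALT-P3A and WT18 14.9%, 21.8% and 35.8% of all genes rose and 18.1%, 21% and 33.8% fell. Against the other set 20.2%, 23.8% and 30.6% rose and 20.7%, 22.8% and 29% fell. In S2A and S2A-S7A neither fep1 nor abc3, another gene under Fep1, passed against control set 1, while abc3 fell in both, and fep1 in S2A-S7A, against set 2.

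Of 15 iron-using enzymes, the class that Php4 represses, 12 fell and 0 rose in ALT-P3A (median -0.34), 9 and 0 in T4A (-0.64), 11 and 0 in WT18 (-0.59) and 6 and 0 in Y1F (-0.12). Of all genes, 21% fell in ALT-P3A, 22.4% in T4A, 33.8% in WT18 and 27.6% in Y1F. Against the other set the falls and rises were 10 and 0 in ALT-P3A (22.8% of all genes fell), 9 and 1 in T4A (20.6%), 12 and 0 in WT18 (29%) and 9 and 2 in Y1F (31.4%). In T4A the log2 fold change of cyt1, cytochrome c1 of the respiratory chain, was -1.29 ± 0.10 against set 2 and -1.40 ± 0.11 against set 1. lys2, the homoaconitase gene of lysine synthesis, fell in Y1F (-0.90 ± 0.08). S2A-S7A had 8 rises and 4 falls against set 1 (29.4% and 31.1% of all genes) and 5 and 2 against set 2 (24.9% and 24%). S2A had 5 falls and 2 rises with either set (17.5% and 18.2% of all genes against set 1, 24.7% and 21% against set 2). ALT-S5A had 4 and 1 with either set (18.1% and 14.9% against set 2, 20.7% and 20.2% against set 1). ALT-P6A had 7 and 2 against set 2 (23.3% and 22.1%) and 8 and 2 against set 1 (25.3% and 25.2%).

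Of 18 genes of iron-sulfur cluster assembly, between 2 and 8 rose and between 2 and 5 fell in each strain, where 14.9% to 35.8% of all genes rose and 17.5% to 33.8% fell. Against the other set between 1 and 6 rose and between 3 and 6 fell, where 17.7% to 30.6% of all genes rose and 20.6% to 31.4% fell. isu1, the scaffold protein gene, rose in Y1F (0.86 ± 0.10 on the log2 scale), ALT-S5A (1.58 ± 0.11), ALT-P6A (1.501 ± 0.06), T4A (1.60 ± 0.13) and ALT-P3A (0.91 ± 0.07), and in the same order by 1.42, 1.05, 0.94, 1.06 and 0.35 against the other set. Of 7 other vacuolar transporters, 4 rose in Y1F (23.6% of all genes), 1 in S2A (18.2%), 5 in S2A-S7A (29.4%) and 3 in T4A (18.4%), with 0 falls. ALT-P3A had 1 rise and 1 fall (fnx2, -0.26 ± 0.08), where 21.8% of all genes rose and 21% fell. Against set 1 fnx2 rose there (0.31 ± 0.08). ALT-S5A had 0 rises and 3 falls (18.1% of all genes fell), and ALT-P6A 1 and 3 (23.3%), with the amino acid transporter gene fnx1 falling in both (-0.58 ± 0.11 and -0.49 ± 0.06). Against set 1 fnx1 stood at 0.07 ± 0.12 and 0.13 ± 0.08 and did not pass. It was 0.64 ± 0.08 higher in control set 2 than in set 1. In WT18 0 rose and 6 fell (33.8% of all genes fell), among them vcx1, a vacuolar calcium exchanger gene (-1.63 ± 0.10). Against the other set the rises and falls were 1 and 2 in Y1F (30.3% and 31.4% of all genes), 1 and 6 in S2A (21% and 24.7%), 2 and 2 in S2A-S7A (24.9% and 24%) and 5 and 0 in T4A (17.7% and 20.6%). They were 4 and 1 in ALT-P3A (23.8% and 22.8%), 3 and 1 in each of ALT-S5A (20.2% and 20.7%) and ALT-P6A (25.2% and 25.3%), and 0 and 5 in WT18 (30.6% and 29%). There were 7 partner genes, which include tup12, fra2 and the exportin gene crm1. In WT18 2 of them rose and 4 fell (35.8% and 33.8% of all genes), and in S2A-S7A 4 rose and 0 fell (29.4% and 31.1%). Each other strain had at most 2 rises and at most 2 falls, where 14.9% to 23.6% of all genes rose and 17.5% to 27.6% fell. Against the other set the rises and falls were 0 and 4 in WT18 (30.6% and 29%) and 3 and 0 in S2A-S7A (24.9% and 24%). They were 2 and 3 in S2A (21% and 24.7%) and 2 and 2 in Y1F (30.3% and 31.4%), and no more than 2 of either kind in the remaining strains. tup12 rose in S2A-S7A (0.44 ± 0.06) and fell in WT18 (-0.996 ± 0.13).

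**Figure D4:**
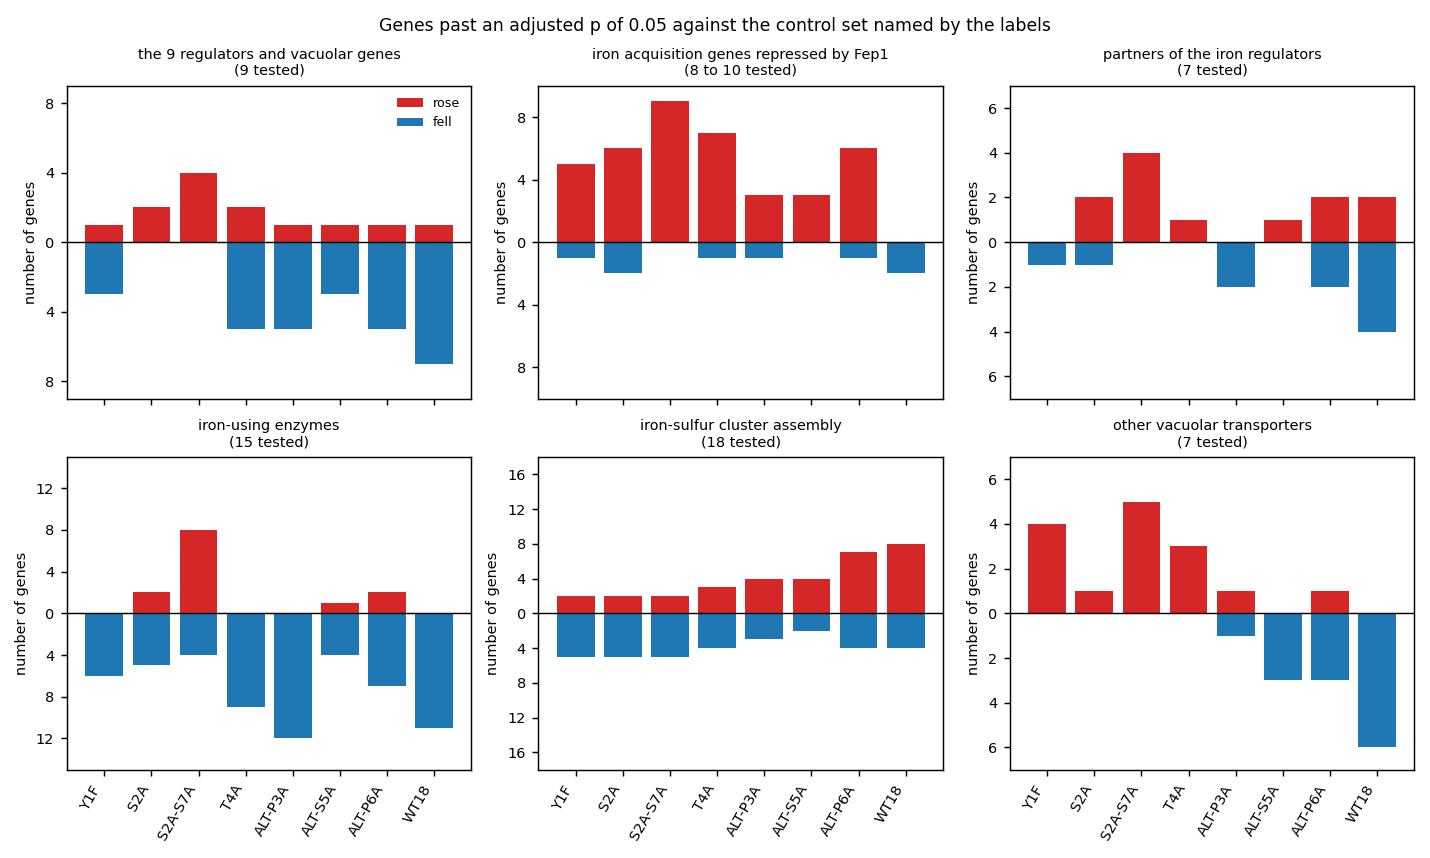
Number of genes (vertical axis) that rose (red, up) or fell (blue, down) at an adjusted p under 0.05 against the control set named by the labels in each of the 8 strains, for the 9 genes described and for 5 lists of related genes. The iron acquisition genes have 9 rises of 10 tested in S2A-S7A and the iron-using enzymes 12 falls of 15 in ALT-P3A. The number of iron acquisition genes tested ran from 8 to 10 with the strain.

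Neighbouring and overlapping genes were taken from an annotation of assembly ASM294v3, matched by ID. The gene upstream of abc3, on the opposite strand, is the flocculin gene pfl7. It fell in all 8 strains against the named set, with log2 fold changes from -0.94 ± 0.22 in S2A-S7A to -5.81 ± 0.41 in T4A, and was 2.83 ± 0.18 higher in control set 2 than in set 1 on that scale. Its fall passed with either set in all strains but WT18 (-0.19 ± 0.42 against set 1). An antisense RNA over abc3, abc3-antisense-1, fell with it in Y1F (-0.94 ± 0.19), T4A (-1.51 ± 0.21), ALT-S5A (-1.77 ± 0.19) and ALT-P6A (-1.61 ± 0.15) with either control set, and in ALT-P3A (-0.65 ± 0.14) against set 2 only. Its mean log2 CPM was 1.95 against 4.92 for abc3, both per gene and not per length. Whether reads were counted by strand is not given, so reads of the pair cannot be told apart. php5 shares its upstream side with arh1, the ferredoxin reductase gene, on the opposite strand. Against set 1 the log2 fold change of arh1 was -1.003 ± 0.13 in Y1F and -0.99 ± 0.21 in S2A, where php5 stood at -0.14 and -0.11 and did not pass. Against set 2 arh1 stood at -0.08 and -0.09 and did not pass, while php5 fell in both (-0.72). In S2A-S7A arh1 fell with either set (-1.58 ± 0.18 against set 1, -0.65 ± 0.15 against set 2), where php5 stood at 0.13 ± 0.05 against set 1 and fell by 0.45 on the log2 scale against set 2. php2 overlaps SPBC725.10 on the opposite strand, with mean log2 CPM of 6.07 and 5.87, so part of either count may belong to the other gene. pcl1 lies upstream of frp1, the ferric reductase gene, on the same strand. The log2 fold change of frp1 was 2.37 ± 0.17 in S2A-S7A and 1.65 ± 0.26 in T4A, where that of pcl1 was 0.09 and -0.40.

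Likeness of pattern was measured as Pearson's r of mean log2 CPM over the 10 groups among 4719 coding genes, and describes groups that share controls and sources. The genes most like abc3 were png1 (r = 0.916), trm44 (0.91) and mph1 (0.904), each highest in control set 2. Most like pcl1 were scs7 (0.955), mct1 (0.947) and rrb1 (0.939), and most like fep1 were met14 (0.985), utp4 (0.98) and rpl1002 (0.976), and these 6 genes were lowest in WT18. Most like php4 were osm1 (0.977), SPAC1687.21 (0.975) and arc4 (0.97), each highest in T4A and lowest in WT18. The rpb1 transcript itself ran from a mean of 58.0 CPM in S2A to 479 CPM in control set 2, with 163 CPM in set 1, and the counts do not show which heptads it encodes. Its part in the results was not tested.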

How the data were processed

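RNA-seq of 31 libraries in 10 groups was analysed. The values used are raw gene-level counts that the authors deposited in 1 matrix. HISAT2 2.1.0, SAMtools, HTSeq 0.10.0 and the build ASM294v2 are named in the submitters' processing notes, and a strand setting is not given in the sources used here. The table lists 6987 lines for 6986 IDs, of which 269 have no count. The authors' deposited tables give log2 fold changes, adjusted p-values and mean signal (counts over size factors) from DESeq2. Control columns 4, 5 and 6 were assigned to the control set 2 record by elimination. Which of the 2 earlier WT18 columns is which record is not shown by their names.

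For every comparison a model of the libraries it concerns was fitted in edgeR 4.0.16 (R 4.3.3; quasi-likelihood F test, TMM, filterByExpr; a direct contrast also with the shared control set), and p-values were adjusted over all genes tested by the Benjamini-Hochberg method at 0.05. ± is the standard error of a log2 fold change. All 9 members were tested in each of 15 comparisons. Scripts were tested on simulated counts. Alternatives were DESeq2 1.42.0 size factors and Wald test, no filter, all groups in 1 fit, a 2-fold minimum, the other or both control sets, either WT18 pair alone, a replicate block, and each library left out. No replicate pair agreed within sampling noise (chi-square per degree of freedom 6.35 or more). Same-numbered libraries deviated together (every correlation over 0.1) in 2 direct contrasts only, ALT-P6A against ALT-S5A (0.32, 0.38 and 0.29) and the S2A-S7A contrast with S2A (0.68, 0.17 and 0.34).

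Members and lists were chosen with earlier results of these data known. List genes are named by rule, at most the 2 largest changes per list and comparison, and likeness is given for pcl1, abc3, php4 and fep1 over coding genes with a mean log2 CPM of at least 2. Of the lists, sib3, ilv3, cfd1 and vba2 matched no ID. The abc3 overlaps, the neighbours and the rpb1 level were chosen after their values were seen. No sequences are given. Exon lengths and neighbours come from ASM294v3 by ID, which matched 6833 IDs.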

Additional observations from a re-analysis of the deposited data

Results flagged for a closer look

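pcl1 in WT18 replicate 4 stood at 112 CPM, far below the other 3 WT18 libraries (179.9, 184 and 185 CPM). Of the 9 genes, each looked at for a library far from the other 3 of WT18, it was the 1 so marked, and chance marks about 1 in 20.

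The effect of WT18 differed between its sources for 4 genes. In the new libraries against the earlier ones, grx4 was at -0.49, php4 at -0.50, php2 at -0.55 and php5 at -0.44 on the log2 scale (edgeR quasi-likelihood test, adjusted p of 0.0117, 0.0201, 0.0118 and 0.0236). In each of the 4 genes both new libraries lay below both earlier ones. With 1 library left out, the number of genes that passed ran from 0 to 6. Strain, RNA extraction, kit and instrument differ together between these pairs and cannot be told apart.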

How the results depend on the processing

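Which control set was used moved the members most. With the other set the number changed went from 4 to 8 in Y1F, 2 to 5 in S2A, 6 to 1 in ALT-P3A and 6 to 3 in ALT-P6A. With both sets together it was 1 in each of S2A, S2A-S7A and the 3 ALT strains. The share of all genes called was not computed for the fits with both sets, so these counts have no background beside them. With the other set 18 of 72 log2 fold changes changed sign and passed against at least 1 of the sets: grx4 to 0.635 in Y1F, 0.553 in S2A-S7A, -0.141 in ALT-P6A, -0.25 in T4A, -0.166 in ALT-S5A and -0.188 in ALT-P3A; php2 to -0.648 in S2A, -0.436 in S2A-S7A (-0.14 with both sets), 0.181 in ALT-P6A, 0.134 in T4A, 0.263 in ALT-S5A and 0.048 in ALT-P3A; fep1 to -0.252 in S2A-S7A, 0.029 in ALT-P3A and 0.123 in ALT-P6A; php5 to -0.45 in S2A-S7A, abc3 to -0.308 in S2A and tup11 to 0.076 in ALT-P6A. The cause was not tested.

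A 2-fold minimum left 1 member in Y1F, each ALT strain and Y1F against S2A, 2 in T4A, 3 in WT18, and 0 in S2A, S2A-S7A, the control sets, S2A-S7A against S2A, ALT-P3A against ALT-P6A and the WT18 pairs. All groups in 1 fit gave 2 in S2A-S7A and 0 for ALT-P3A against ALT-P6A. For the latter DESeq2 size factors and the Wald test gave 1. For S2A-S7A against S2A both, and no filter, gave 2, and the replicate block 3. The block moved no other count by more than 1.5 times. Numbers did not pair Y1F, S2A or S2A-S7A with control set 1 (correlations from -0.39 to 0.61), Y1F with S2A, or ALT-P3A with the other ALT strains. No paired analysis was possible because replicate numbers are not shared between control set 2 and its strains, between the control sets, or between the WT18 sources.

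With 1 library left out (89 fits), the members changed ran from 3 to 6 in Y1F, 1 to 2 in S2A, 2 to 4 in S2A-S7A, 6 to 8 in T4A, 4 to 6 in ALT-P3A, 4 to 4 in ALT-S5A, 4 to 6 in ALT-P6A, 7 to 9 in WT18, 4 to 6 between the control sets, 1 to 2 for S2A-S7A against S2A, 4 to 5 for Y1F against S2A, 0 to 1 for ALT-P3A against ALT-P6A, 0 to 2 for ALT-P3A against ALT-S5A, 0 to 0 for ALT-P6A against ALT-S5A and 0 to 6 for the WT18 pairs. The low counts of S2A came without control replicate 2 or S2A replicates 1 or 2 (1 each), that of S2A-S7A without control replicate 2 (2), the 2 for S2A-S7A against S2A without S2A replicates 1 or 3, and for the WT18 pairs 1, 0 and 2 came without replicates 1, 2 and 4. Of 801 such fold changes 0 turned direction while past the threshold. Every member had at least 366 reads in each library, the lowest for abc3.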
